A study of Macaca mulatta with 8 samples.

Results

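The netrin system was followed here through 10 genes, the ligands NTN1, NTN4, NTNG1 and NTNG2 and the receptors DCC, NEO1, UNC5A, UNC5B, UNC5C and UNC5D, in single nuclei of macaque brain. The genes were chosen by symbol from the 21748 genes of the count table, with their levels in the cell classes already known from these data. Those levels, in UMIs (counted RNA molecules) per 1000000 UMIs of a class (CPM), are therefore given as a description with no test. All 10 had counts. All 10 reached 10 CPM in at least 1 of 15 classes, from 4 classes for UNC5B to all 15 for NTNG1, DCC, NEO1, UNC5C and UNC5D.

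Netrins are laminin-related guidance proteins. Netrin-1 and netrin-4 (NTN1, NTN4) are secreted, while the netrin-G proteins (NTNG1, NTNG2) are held on the axon surface by a lipid anchor and bind the synaptic adhesion proteins LRRC4C and LRRC4 rather than DCC. DCC and its relative neogenin (NEO1) mediate attraction to netrin-1, and the UNC5 receptors, alone or in complex with DCC, mediate repulsion. In the oligodendrocyte lineage, netrin-1 is known from rodents to guide migrating precursors, and it acts with DCC in the growth and upkeep of myelin-forming processes.

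The sevoflurane group held 4 samples of tissue from 1 male rhesus macaque, which breathed about 2.5 to 3% of this anaesthetic gas for 4 h at about postnatal day 7 and again at 14 and 28 days. The control group held 4 samples of tissue mixed from 2 male macaques. Tissue of a group was mixed before it was divided, so the samples of a group are not separate animals. The sample characteristics give hippocampus and the growth protocol amygdala, and these data were not used to choose between them. Nuclei of frozen tissue were sequenced with 10x Genomics 3' chemistry, and each of 8 libraries is marked by a suffix on its barcodes. No source used here ties a suffix to a sample, so sevoflurane was not compared with control, the matrix counts as 1 sample, and the libraries below are not replicates of a group.

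The libraries held 35806547 to 47007082 UMIs, and 54644 nuclei were kept in 48 clusters, of which 28474 nuclei fell in neuron classes and 24220 in non-neuronal classes. Of the 59318 barcode sequences, 429 occurred in more than 1 library. The libraries stood apart: of 44 named clusters, 16 drew over 90% of their nuclei from libraries 1 to 4 and 13 from libraries 5 to 8. Granule-like neurons were thus cluster 6 in libraries 1 to 4 and cluster 22 in libraries 5 to 8, and astrocytes mostly clusters 2 and 4. Pyramidal-like neurons were mostly clusters 12 and 27 in libraries 1 to 4 and clusters 13, 26, 30, 42 and 45 in libraries 5 to 8. A granule marker, PROX1, was among the 10 leading genes of cluster 6, and a pyramidal marker, FIBCD1, among those of clusters 12 and 13. Granule-like cluster 22 and pyramidal-like clusters 26, 27, 30, 42 and 45 had none of their own markers among these leading genes. Immature neurons were 1 cluster (7), with PROX1 and none of their own markers among its 10 leading genes. Clusters 14 and 28 (excitatory), 29 (LHX6 inhibitory) and 42 (pyramidal-like) likewise held more markers of another type than of their own there. RNA of neuron markers was present in every non-neuronal class. There 7 excitatory and inhibitory markers stood at a median of 21.2% (newly formed oligodendrocytes) to 35.6% (microglia) of their level in neurons. The lowest marker of a class stood at 10.3% to 17.6% and the highest at 98.8% (endothelial) to 283% (newly formed oligodendrocytes). Whether this RNA came from neurons or from the class itself was not tested, nor was its part in the levels below. Intervals are exact 95% Poisson or binomial intervals of counting error, and the spread over libraries was wider.

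Precursors of oligodendrocytes and newly formed oligodendrocytes held the most NTN1, LHX6 and ADARB2 inhibitory neurons the most NTN4, precursors the most NTNG1, and excitatory neurons the most NTNG2. Among the receptors, immature neurons held the most DCC, oligodendrocytes the most NEO1 and UNC5C, excitatory neurons the most UNC5A, endothelial nuclei the most UNC5B and LHX6 inhibitory neurons the most UNC5D. The ratio of the highest to the lowest of the 15 class levels was 57.4 for NTN1, 24.05 for NTN4, 24.3 for NTNG1, 14.1 for NTNG2, 30.3 for DCC, 5.83 for NEO1, 13.2 for UNC5A, 37.2 for UNC5B, 27.2 for UNC5C and 35.05 for UNC5D. NEO1 was thus the most even of the 10. In the order of the 14 classes with enough nuclei per library, the library ranges of neighbours mostly overlapped. They did so at all 13 steps for NTN4, NTNG2, NEO1 and UNC5A and at 12 for NTN1, UNC5B and UNC5C. For DCC and UNC5D they did so at 11 steps, and for NTNG1 at 10. These ranges do not pair the values of a library, so an overlap does not show that neighbours are alike. UNC5D, for one, was higher in astrocytes than in other excitatory neurons in every library, although these ranges overlap.

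**Figure D1:**
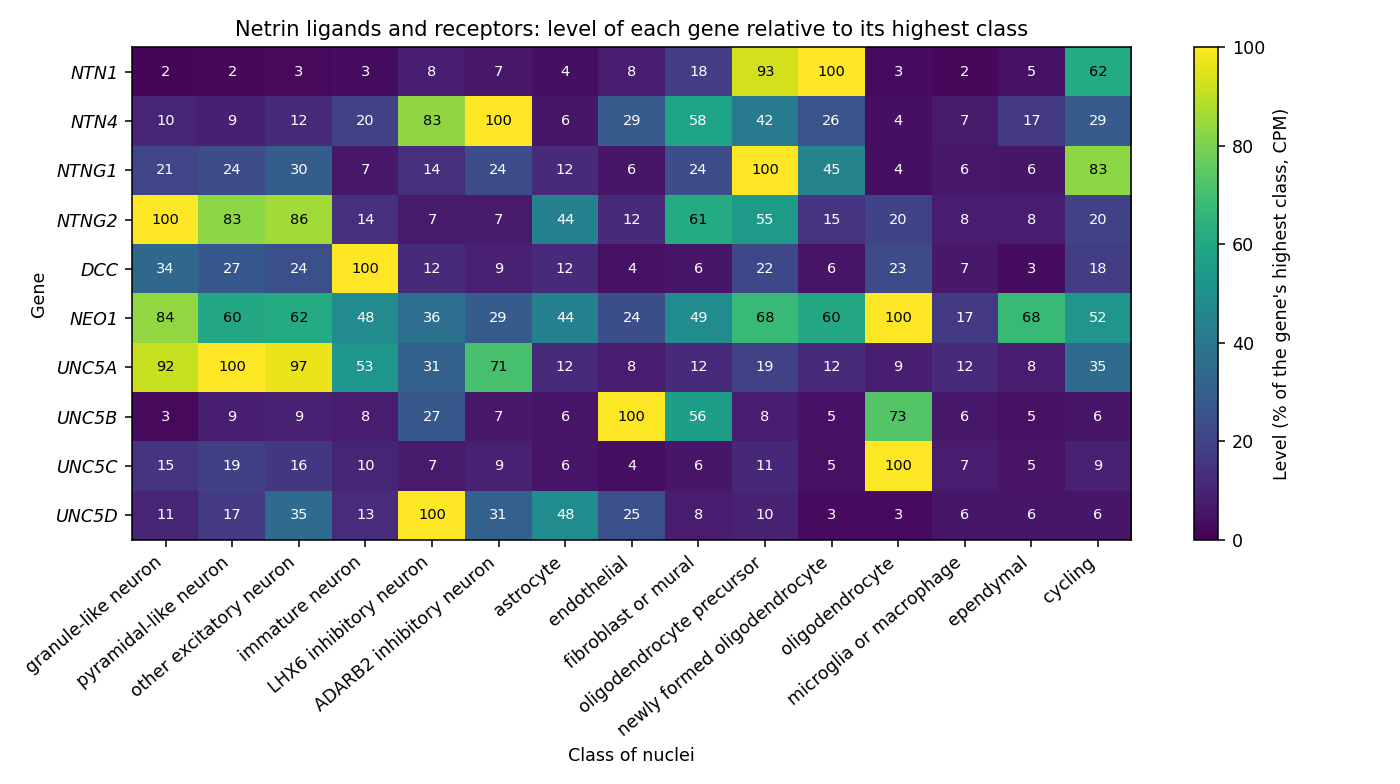
Level of each of the 10 genes (rows) in 15 classes of nuclei (columns), as percent of the gene's own highest class, from CPM of UMIs summed over all libraries. NTN1 is bright in precursors and newly formed oligodendrocytes, UNC5C in oligodendrocytes, DCC in immature neurons, and NEO1 is spread over most classes.

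NTN1, the secreted ligand of DCC and the UNC5 receptors, was a transcript of early oligodendrocyte lineage nuclei. Precursors had 392.1, 456 and 667 CPM (lowest, median and highest of 8 libraries), newly formed oligodendrocytes 540, 390, 503 and 446 CPM in libraries 1 to 4, and oligodendrocytes 6.84, 12.7, 14.8 and 16.3 CPM in the same libraries. The first and second stages overlapped, and every library of both lay far above every oligodendrocyte value. Cycling nuclei (99, from all libraries summed), whose second best marker set was that of precursors, had 293 CPM (interval 239 to 357). Fibroblast or mural nuclei came next at 86.1 CPM, in fibroblast cluster 39 (126 CPM) more than in mural cluster 44 (15.8 CPM). Neuron classes had 8.29 CPM (granule-like) to 39.6 CPM (LHX6 inhibitory). NTN1 was also among the 10 leading genes of the precursor cluster, although none of the 10 genes was used for clustering.

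NTN4, a secreted netrin that also binds laminins of basement membranes, marked inhibitory neurons. Its lowest, median and highest library values were 114, 143 and 188 CPM in ADARB2 inhibitory neurons and 78.7, 128 and 155 CPM in LHX6 inhibitory neurons, which overlap. Among excitatory classes the highest library value was 24.3 CPM, in granule-like neurons. Outside neurons, fibroblast or mural nuclei had 88.4 CPM over all libraries summed (37.0, 57.1 and 81.3 CPM over 5 libraries) and precursors 63.3 CPM (43.8, 69.9 and 124 CPM over 8 libraries), so their order depends on how libraries are summed. The mural cluster 44 held 196 CPM and the fibroblast cluster 39 held 28.3 CPM. The median doublet scores of these clusters, 0.42 and 0.34, were above those of most other named clusters. Astrocytes (8.95 CPM) and oligodendrocytes (6.34 CPM) lay at the other end of the order.

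NTNG1, the netrin-G1 ligand of LRRC4C, was highest in precursors, with 828.9, 894 and 1248 CPM (lowest, median and highest of 8 libraries). It was next highest in cycling nuclei, at 730 CPM, and in newly formed oligodendrocytes, at 463, 376, 400 and 373 CPM in libraries 1 to 4. Oligodendrocytes had 36.2 CPM, the lowest of the 15 classes. Neuron classes lay between 57.2 CPM (immature) and 261 CPM (other excitatory), but single neuron clusters reached far beyond that. Excitatory cluster 36 had 1222 CPM, with NTNG1 among its 10 leading genes, excitatory cluster 40 had 702 CPM and inhibitory cluster 29 had 574 CPM, against a median of 149.9 CPM over 29 neuron clusters and 15.1 CPM in pyramidal-like cluster 27.

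NTNG2, the netrin-G2 ligand of LRRC4, was highest in the excitatory classes over all libraries summed and parted them from inhibitory neurons. Granule-like neurons had 40.2, 88.4 and 157 CPM (lowest, median and highest of 8 libraries), pyramidal-like neurons 29.9, 71.4 and 84.6 CPM and other excitatory neurons 45.1, 62.5 and 77.9 CPM, so that these classes overlapped. Both inhibitory classes stood near 5 CPM, at 5.28 CPM (LHX6) and 5.23 CPM (ADARB2). Immature neurons had 11.5, 12.7, 3.88 and 7.72 CPM in libraries 1 to 4. Excitatory clusters were not alike: cluster 37 had 251 CPM and cluster 24 had 184 CPM, while cluster 18 had 2.06 CPM and cluster 25 had 2.31 CPM. Astrocytes (32.3 CPM), precursors (40.3 CPM) and fibroblast or mural nuclei (45.3 CPM) held more than the inhibitory classes. Precursors were above pyramidal-like neurons in libraries 3, 4 and 7 (37.0, 37.0 and 83.4 against 29.9, 30.1 and 73.6 CPM). In the other libraries precursors were below pyramidal-like neurons.

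DCC, the attractive netrin receptor, was highest in immature neurons, at 6016, 6187, 6646 and 6548 CPM in libraries 1 to 4. The next class, granule-like neurons, had 1228, 2337 and 2626 CPM (lowest, median and highest of 8 libraries), and no library of it reached the lowest immature value. A DCC UMI was found in 99.8% of immature nuclei at a median depth of 1849 UMIs, and in 98.9% when each nucleus was thinned to 1000 UMIs. In ependymal nuclei, the class lowest in DCC, the shares were 43.6% at a median depth of 2469 UMIs and 21.2% after thinning. Oligodendrocytes (1460 CPM) and precursors (1362 CPM) were close to the excitatory classes, at 94.0% and 87.7% of the level in all neurons. The other non-neuronal classes but cycling nuclei stood at 13.2% (ependymal) to 49.0% (astrocytes) of it, beside neuron markers at a median of 21.4% and 25.9% in these 2 classes. Cycling nuclei stood at 72.5% of the level of DCC in all neurons, beside a marker median of 22.3%.

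NEO1, the DCC relative that also binds RGM proteins, was present in all 15 classes within a narrow range. Oligodendrocytes had 409, 436 and 491 CPM (lowest, median and highest of 8 libraries), granule-like neurons 246, 325 and 470 CPM, and microglia, the lowest class, 15.5, 72.8 and 95.7 CPM over 6 libraries. Oligodendrocyte and granule-like values overlapped, and both lay above every microglial value. The highest single cluster was pyramidal-like cluster 30, at 550.2 CPM.

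UNC5A, a repulsive netrin receptor, was mainly neuronal. Pyramidal-like neurons had 64.7, 108 and 124.8 CPM (lowest, median and highest of 8 libraries), other excitatory neurons 53.0, 87.0 and 123 CPM, and granule-like neurons 56.2, 112 and 160 CPM. Non-neuronal classes other than cycling nuclei had 7.63 CPM (ependymal) to 19.5 CPM (precursors). In these classes UNC5A stood at 8.68% to 22.2% of its level in neurons, below the median of the neuron markers in each of them. After thinning to 1000 UMIs, a UNC5A UMI was in 9.57% of pyramidal-like nuclei (57.5% unthinned, median depth 9477.5 UMIs) and in 0.977% of oligodendrocytes (2.599% unthinned, median depth 2803 UMIs).

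UNC5B, the UNC5 receptor known for its role in blood vessels, was highest in endothelial nuclei, at 131, 114 and 90.3 CPM in libraries 1, 2 and 6. Oligodendrocytes followed with 61.6, 73.9 and 160 CPM (lowest, median and highest of 8 libraries), which overlap the endothelial values. The mural cluster 44 had 107 CPM. Neurons were low, from 2.66 CPM in granule-like to 26.97 CPM in LHX6 inhibitory neurons, where cluster 41 (236 CPM), with UNC5B among its 10 leading genes, gave 446 of 633 UMIs. The other 3 LHX6 clusters had 2.38 to 38.7 CPM.

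UNC5C, another repulsive receptor, was highest in oligodendrocytes, at 2690, 2939 and 3356 CPM (lowest, median and highest of 8 libraries). No other class reached that: pyramidal-like neurons came next with 406, 489 and 1187 CPM. Within neurons, UNC5C was highest in excitatory cluster 16 (1599 CPM) and pyramidal-like cluster 27 (1548 CPM), which also held 3082 and 3740 CPM of DCC, against a median of 1153 CPM of DCC over 29 neuron clusters. A UNC5C UMI was found in 95.5% of oligodendrocytes (86.4% after thinning to 1000 UMIs) and, at the low end, in 36.5% of newly formed oligodendrocytes (12.5% after thinning), whose median depth was the greater, 3735 against 2803 UMIs.

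UNC5D, an UNC5 receptor that also binds FLRT proteins, was highest in LHX6 inhibitory neurons, at 1778, 2288 and 2805 CPM (lowest, median and highest of 8 libraries). Astrocytes were second, at 846, 1265 and 1665 CPM, and did not overlap them. All 4 LHX6 clusters were high, with 1546 CPM in cluster 11, 2571 CPM in cluster 20, 2942 CPM in cluster 41 and 3936 CPM in cluster 29. The astrocyte clusters differed more, from 200.01 CPM in cluster 31 and 315 CPM in cluster 35 to 1062 CPM in cluster 2 and 1607 CPM in cluster 4. Single clusters of other neuron classes were also high: excitatory cluster 24 had 1996 CPM, above LHX6 cluster 11, and ADARB2 cluster 8 had 1068 CPM. Of the classes, oligodendrocytes (70.6 CPM) and newly formed oligodendrocytes (66.9 CPM) were lowest.

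**Figure D2:**
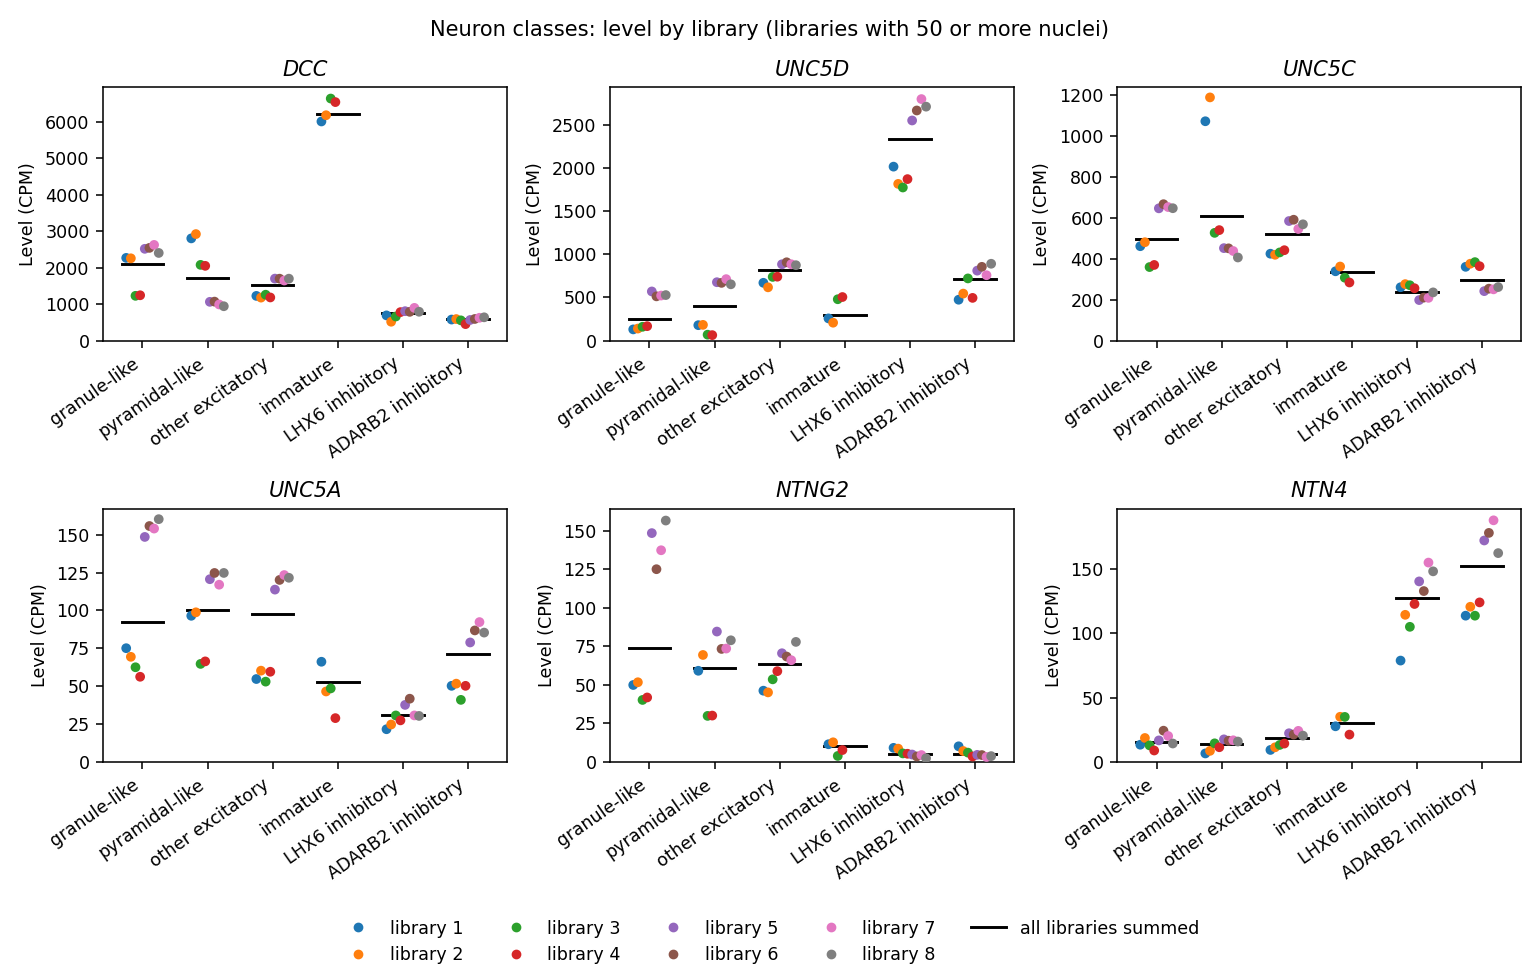
Levels (CPM) of 6 genes in 6 neuron classes, 1 point per library with 50 or more nuclei and a bar for all libraries summed. DCC in immature neurons (6016 to 6646 CPM) lies above all other neuron values, UNC5D is highest in LHX6 inhibitory neurons, and NTNG2 and NTN4 part excitatory from inhibitory classes.

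The classes were then compared in pairs. A gene was called higher or lower where the summed levels differed at least 2-fold, at least 10 CPM was reached in the higher class, and all libraries with 50 or more nuclei of each class pointed the same way. Of the 9 comparisons, 1 called none of the 10 genes, and NEO1 was called in none of them as reported, although TMM scaling called it in 3. Shares of all genes are given for the calls as reported and were not computed under other settings.

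Between neurons and non-neuronal nuclei, 2 of the 10 genes were higher in neurons, UNC5A and NTNG2, beside 11.7% of all measured genes. NTN1 alone was lower, beside 18.9% of all genes. UNC5A had 54.9, 85.5 and 112 CPM in neurons (lowest, median and highest of 8 libraries), against 10.5, 13.01 and 14.5 CPM in non-neuronal nuclei, and the ratio of the sums was 7.38 (interval 6.87 to 7.95). NTN1 had 11.9, 16.2 and 18.1 CPM in neurons, against 83.3, 106 and 142 CPM, and was 7.74-fold lower in neurons. NTNG2 was 2.30-fold higher in neurons, and its library values overlapped (34.96, 50.9 and 66.7 CPM in neurons, 15.8, 31.6 and 41.4 CPM in non-neuronal nuclei). Its call was lost with libraries weighted equally, in libraries 1 to 4 alone and in libraries 5 to 8 alone, and without library 5, or without LHX6 cluster 41, UNC5B joined NTN1 as lower, for 2 genes lower. DCC missed the 2-fold threshold, at 1553 against 947 CPM, although neurons were higher in 8 of 8 libraries. Over the 10 genes the median log2 ratio was 0.34, and over all measured genes -0.23.

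Between excitatory and inhibitory neurons, 7 of the 10 genes were called. NTNG2, DCC and UNC5C were higher in excitatory neurons, 3 genes beside 6.15% of all measured genes, and NTN1, NTN4, UNC5B and UNC5D were lower, 4 genes beside 6.44%. NTNG2 had 41.9, 63.0 and 82.9 CPM in excitatory neurons (lowest, median and highest of 8 libraries), against 3.01, 4.67 and 9.58 CPM in inhibitory neurons, a ratio of 12.2. That ratio was 6.66 in libraries 1 to 4 alone and 19.6 in libraries 5 to 8 alone. DCC had 1524, 1577 and 1943 CPM in excitatory neurons, against 552, 674 and 774 CPM in inhibitory neurons, a ratio of 2.44 (interval 2.41 to 2.47). UNC5C had 462, 538 and 649 CPM in excitatory neurons, against 218, 272 and 324 CPM, a ratio of 2.08, and was not called in libraries 1 to 4 alone. NTN4 had 9.66, 16.2 and 21.9 CPM in excitatory neurons, against 93.7, 138 and 170 CPM, and was 8.32-fold lower there. UNC5D had 369, 591 and 821 CPM in excitatory neurons, against 1201, 1558 and 1908 CPM in inhibitory neurons, 2.62-fold lower. UNC5B had 6.49, 8.05 and 9.60 CPM in excitatory neurons, against 11.7, 15.4 and 25.5 CPM in inhibitory neurons, 2.25-fold lower. Without LHX6 cluster 41 inhibitory neurons had 7.81 CPM of UNC5B, and that call was lost (ratio 1.02, interval 0.905 to 1.16). None of the 7 called genes had overlapping library values. UNC5A, at 97.8 against 49.0 CPM, sat on the threshold and was called without library 2, 3, 4 or 6. With it and NEO1 the count of higher genes was 5 with TMM scaling. The 10 genes had a median log2 ratio of 0.75 and all genes one of -0.11.

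Granule and pyramidal neurons are the main excitatory cells of the hippocampus. Between granule-like and pyramidal-like neurons, none of the 8 measured genes was called higher (4.72% of all genes were) or lower (5.26%). The largest log2 ratio among the 8 was -0.66, for UNC5D, with granule-like values of 129, 340 and 570 CPM (lowest, median and highest of 8 libraries) and pyramidal-like values of 62.9, 418 and 713 CPM. NTN1 and UNC5B were below 10 CPM in both classes. For each of the 8 measured genes the libraries differed in direction. DCC was higher in granule-like than in pyramidal-like neurons in 4 of 8 libraries, with 1228, 2337 and 2626 CPM against 942, 1560 and 2924 CPM. Those were libraries 5 to 8 (2405 to 2626 against 942 to 1069 CPM), and DCC was lower in libraries 1 to 4 (1228 to 2270 against 2051 to 2924 CPM). UNC5A and UNC5C split the same way and NTNG1 and NEO1 the opposite way. Both classes were mostly different clusters in these sets of libraries. In libraries 5 to 8 alone DCC was called higher in granule-like neurons, and in libraries 1 to 4 alone UNC5B was called lower. Median log2 ratios were 0.04 over the 8 genes and 0.02 over all genes.

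Between granule-like and immature neurons, 3 of the 9 measured genes were called. NTNG1 and NTNG2 were higher in granule-like neurons, beside 8.16% of all genes, and DCC was lower, beside 16.8%. DCC had 2270, 2258, 1228 and 1243 CPM in granule-like neurons of libraries 1 to 4, against 6016, 6187, 6646 and 6548 CPM in immature neurons, 2.95-fold lower over all libraries summed. NTNG1 had 172, 165, 102 and 123 CPM in granule-like neurons, against 60.1, 58.6, 36.9 and 63.6 CPM in immature neurons. Its ratio was 3.23 over all libraries summed, which takes in granule-like neurons of libraries 5 to 8. Within single libraries the ratio was lower, with a log2 ratio of 0.95 in library 4, under 2-fold, and 1.47 to 1.52 in libraries 1 to 3. NTNG2 had 49.9, 51.7, 40.2 and 41.9 CPM in granule-like neurons, against 11.5, 12.7, 3.88 and 7.72 CPM, a ratio of 7.13 over all libraries and 4.55 over libraries 1 to 4. In none of the 3 did the library values overlap. When the granule-like sums were limited to libraries 1 to 4, NTN4 and UNC5D were also lower in granule-like neurons, for 3 genes lower in all. Over all libraries but library 2, NTN1 joined DCC as lower, and over all but library 6, NTN4 did, for 2 genes lower in place of 1. Medians of the log2 ratio were 0.57 over the 9 genes and -0.28 over all genes.

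Within inhibitory neurons, UNC5B and UNC5D were higher in LHX6 than in ADARB2 neurons (2 of 9 measured genes, beside 3.06% of all genes), and UNC5A was lower (1 of 9, beside 3.49%). LHX6 and ADARB2 mark inhibitory neurons born in the medial and in the caudal ganglionic eminence. UNC5D had 1778, 2288 and 2805 CPM in LHX6 neurons (lowest, median and highest of 8 libraries), against 474, 740 and 892 CPM in ADARB2 neurons, a ratio of 3.26 (interval 3.20 to 3.32). UNC5B had 17.3, 22.4 and 41.5 CPM, against 2.83, 5.98 and 11.5 CPM, a ratio of 3.95. For both genes every LHX6 value lay above every ADARB2 value. The UNC5B call rested on cluster 41: without it LHX6 neurons had 8.67 CPM, a ratio of 1.27 (1.01 to 1.60), and the call was lost, while the UNC5D ratio was 3.19. UNC5A had 21.6, 30.5 and 41.7 CPM in LHX6 neurons, against 40.98, 65.3 and 92.3 CPM, 2.28-fold lower. These UNC5A values overlap slightly, and the call was lost in libraries 1 to 4 alone. The median log2 ratio was 0.30 over the 9 genes and 0.00 over all genes.

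Along the oligodendrocyte lineage, from precursors to newly formed oligodendrocytes, NTNG1, NTNG2, DCC, UNC5C and UNC5D were lower, 5 of 9 measured genes beside 13.2% of all genes, and none was higher, beside 5.77%. In libraries 1 to 4, DCC had 1417, 1471, 1271 and 1298 CPM in precursors, 455, 443, 319 and 355 CPM in newly formed oligodendrocytes, and 1740, 1803, 1365 and 1375 CPM in oligodendrocytes. The middle stage lay below both others in all 4 libraries, 3.74-fold below precursors over all libraries summed. UNC5C had 354, 348, 336 and 356 CPM in precursors, 195, 152, 151 and 124 CPM in newly formed oligodendrocytes, and 2898, 2919, 3356 and 3323 CPM in oligodendrocytes. UNC5C was thus also lowest in the middle stage, 2.44-fold below precursors, with no overlap between stages. That last call depends on the clusters: at a coarser resolution, where the newly formed cluster took in 239 of the nuclei reported as oligodendrocytes, the UNC5C log2 ratio to precursors was 0.69 in place of -1.29. NTNG1, at a ratio near the threshold (2.23-fold lower), was not called with TMM scaling or at the finer resolution of 2.0. The median log2 ratio from precursors to newly formed oligodendrocytes was -1.16 over the 9 genes and -0.26 over all genes.

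From newly formed oligodendrocytes to oligodendrocytes, NTN1, NTN4 and NTNG1 were lower (3 of 10, beside 9.29% of all genes) and DCC, UNC5B and UNC5C were higher (3 of 10, beside 11.4%). NTN1 was 34.0-fold lower in oligodendrocytes (14.0 against 476 CPM), NTNG1 10.9-fold lower (36.2 against 395 CPM) and NTN4 6.18-fold lower (6.34 against 39.2 CPM), or 3.94-fold with libraries weighted equally. UNC5C was 21.9-fold higher in oligodendrocytes (interval 20.4 to 23.6), UNC5B 15.5-fold higher (10.4 to 24.3) and DCC 4.00-fold higher (3.82 to 4.20). UNC5B had 64.5, 69.8, 78.1 and 67.6 CPM in oligodendrocytes of libraries 1 to 4, against 6.71, 0, 2.80 and 5.598 CPM in newly formed oligodendrocytes. For all 6 genes the direction held in 4 of 4 libraries, and the values of libraries 1 to 4 did not overlap. For NTN4, oligodendrocytes of library 7 had 24.1 CPM, above newly formed oligodendrocytes of library 2, at 18.0 CPM. At the coarser resolution the ratio was 5.71 for UNC5C and 7.60 for UNC5B. The median log2 ratio was 0.25 over the 10 genes and 0.16 over all genes.

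**Figure D3:**
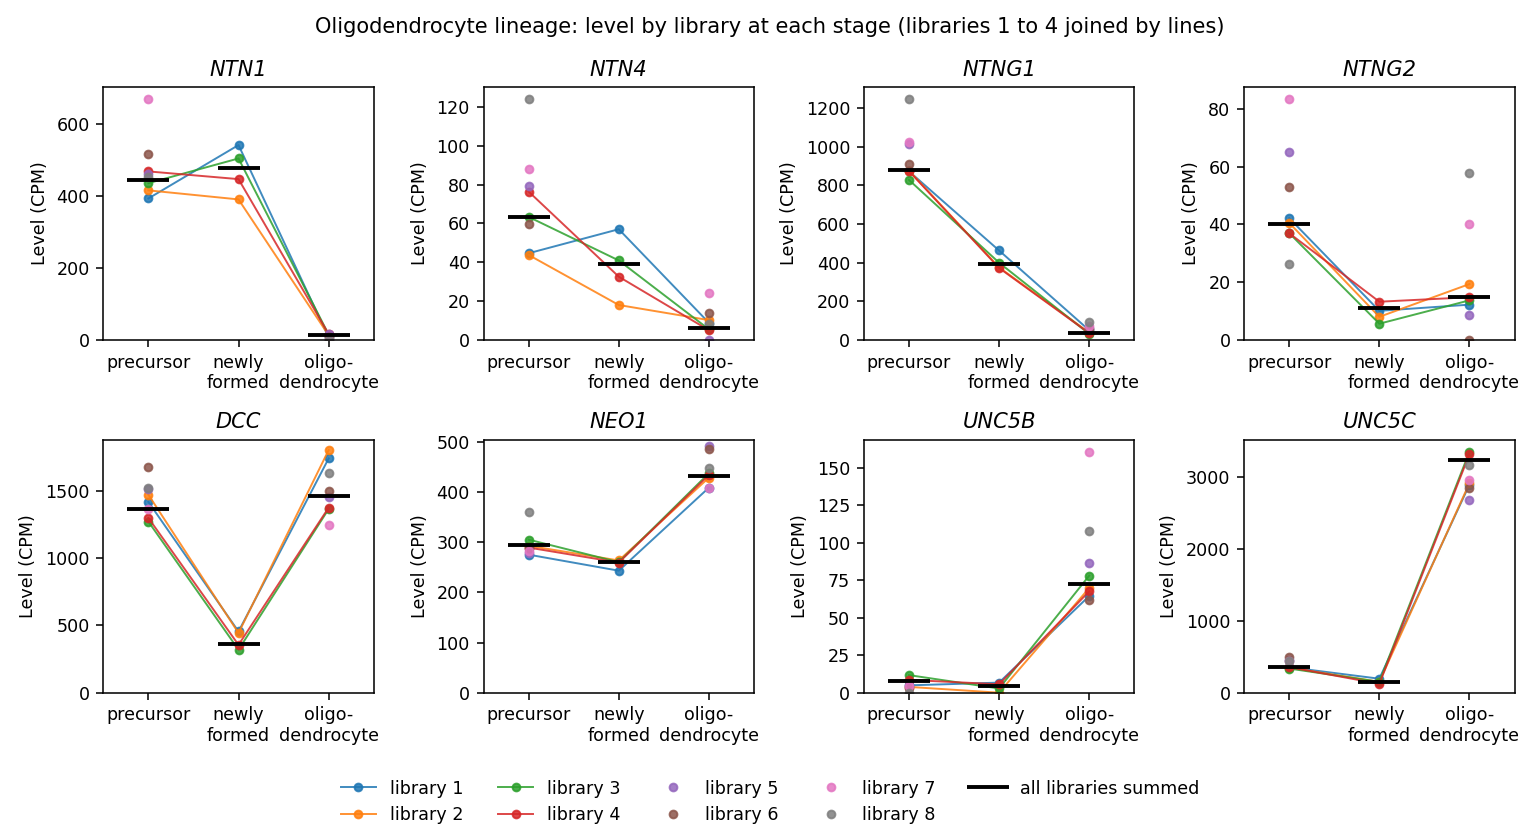
Levels (CPM) of 8 genes at 3 stages of the oligodendrocyte lineage, 1 point per library with 50 or more nuclei, lines for libraries 1 to 4 and black bars for all libraries summed. NTN1, NTN4 and NTNG1 are lowest in oligodendrocytes, UNC5B and UNC5C are highest there, and DCC is lowest in the middle stage.

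The balance of DCC and UNC5C differed between stages. Per UMI of UNC5C there were 3.79 UMIs of DCC in precursors (3.65 to 3.93), 2.47 in newly formed oligodendrocytes (2.27 to 2.69) and 0.451 in oligodendrocytes (0.445 to 0.458). Oligodendrocytes were the lowest of the 15 classes in this ratio and immature neurons, at 18.6 (17.6 to 19.6), the highest. The library values were 0.407 to 0.618 in oligodendrocytes and 17.1 to 23.1 in immature neurons, and no other class with library values overlapped either range. The ratio depends on how well each transcript is counted, so it serves between classes and not as a ratio of molecules. In nuclei thinned to 1000 UMIs, UMIs of both receptors were found together in 19.7% of precursors, 4.46% of newly formed oligodendrocytes and 61.9% of oligodendrocytes. DCC without UNC5C was found in 49.9% of precursors, 24.3% of newly formed oligodendrocytes and 10.8% of oligodendrocytes. In immature neurons both were found in 25.2% and DCC without UNC5C in 73.4%. NTN1 and NTNG1 were found together in 19.3% of thinned precursors, 12.7% of newly formed oligodendrocytes and 0.0857% of oligodendrocytes.

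Between astrocytes and the other non-neuronal nuclei, 6 of the 10 genes were called. UNC5D was the 1 gene called higher in astrocytes, beside 8.47% of all genes, with 846, 1265 and 1665 CPM (lowest, median and highest of 8 libraries), against 101, 222 and 409 CPM in the other non-neuronal nuclei, a ratio of 8.26 (8.03 to 8.50). That ratio was 5.46 with libraries weighted equally and 4.90 in libraries 5 to 8 alone. NTN1, NTN4, NTNG1, UNC5B and UNC5C were lower in astrocytes, 5 of 10 beside 12.5% of all genes. NTN1 had 10.7, 19.98 and 31.4 CPM in astrocytes, against 151, 169 and 256 CPM in the others, 8.56-fold lower. UNC5C had 129, 171 and 213 CPM, against 507, 881 and 1761 CPM, 7.98-fold lower, or 3.96-fold in libraries 5 to 8 alone, where NTN4 was 5.38-fold lower (3.12-fold over all libraries). None of the 6 called genes overlapped between the 2 sets of library values. Over all libraries summed, the other non-neuronal nuclei were mostly of the oligodendrocyte lineage, so this comparison and the lineage stages above share nuclei. In each of libraries 5 to 8, however, lineage nuclei were fewer than the remaining other non-neuronal nuclei together. Libraries 1 to 4 gave 95.2% of oligodendrocyte cluster 1 and 88.3% of precursors, against 66.3% of ependymal nuclei and 25.1% of fibroblast cluster 39. The part of this makeup in the ratios was not tested. The median log2 ratio was -1.04 over the 10 genes and -0.02 over all genes.

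In vascular nuclei (endothelial, fibroblast and mural summed, 959 in all), NTN4 and UNC5B were higher than in the other non-neuronal nuclei, 2 of 10 beside 11.5% of all genes, and DCC and UNC5C were lower, 2 of 10 beside 11.6%. UNC5B had 44.3, 63.0 and 122 CPM in vascular nuclei (lowest, median and highest of 7 libraries), against 6.29, 12.7 and 36.4 CPM, a ratio of 3.22 (2.77 to 3.73), or 5.69 in libraries 5 to 8 alone. NTN4 had 42.6, 49.0 and 71.0 CPM, against 16.02, 20.1 and 26.3 CPM, a ratio of 2.89. DCC had 222, 318 and 429 CPM in vascular nuclei, against 910, 1032 and 1128 CPM, 3.12-fold lower. UNC5C was 7.62-fold lower, or 2.61-fold in libraries 5 to 8 alone. Library values of the 4 genes did not overlap. Without library 8 the lower genes numbered 4, with NEO1 and NTNG1. The median doublet scores of the endothelial clusters were 0.35 and 0.34, and their part in these values was not tested. The median log2 ratio was -0.66 over the 10 genes and 0.06 over all genes.

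**Figure D4:**
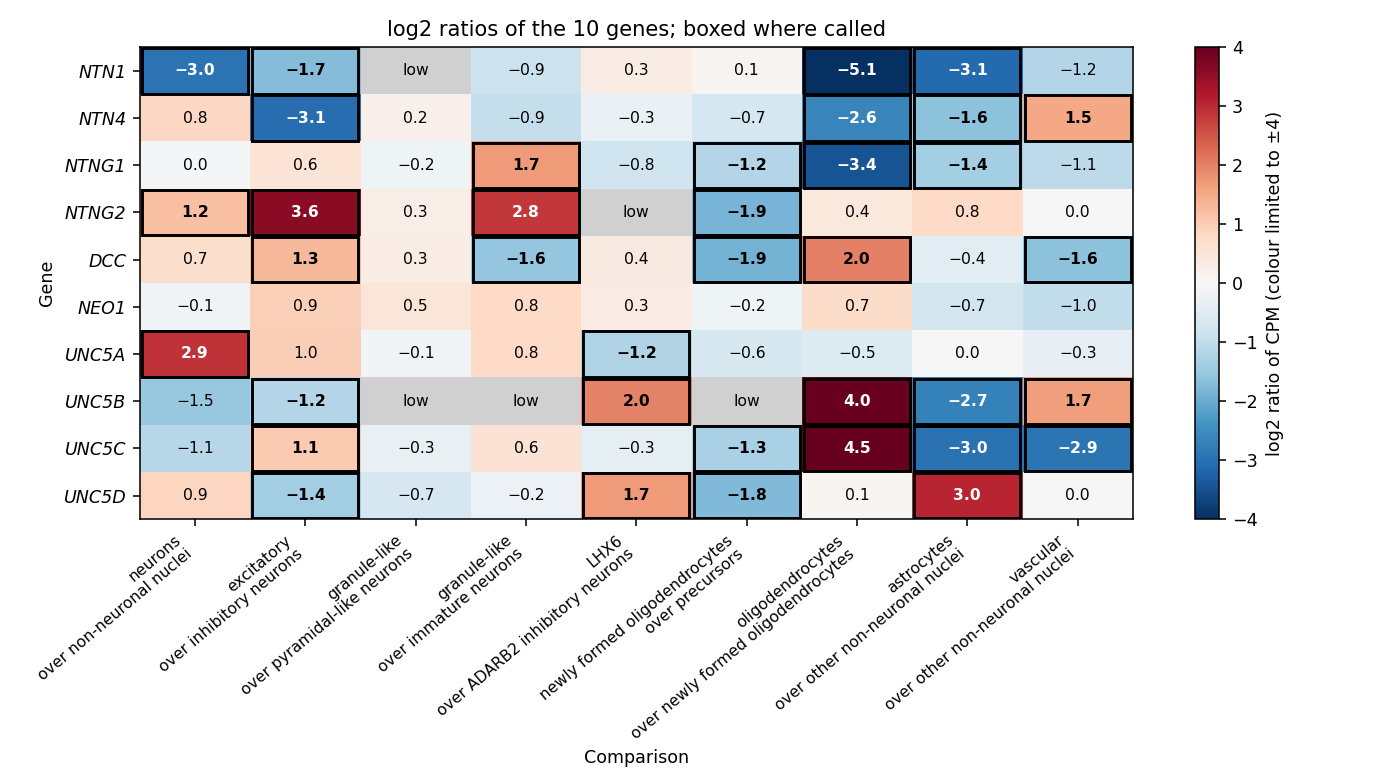
log2 ratios of CPM for the 10 genes (rows) in 9 comparisons of classes (columns), coloured within 4 units of 0, boxed and bold where called, and grey ("low") where both classes were below 10 CPM. NTN1 has the most negative value, -5.09 in oligodendrocytes over newly formed oligodendrocytes, and UNC5C the highest, 4.45, in the same column.

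Neuron clusters varied more than neuron classes. Over 29 neuron clusters DCC ranged from 113 CPM (pyramidal-like cluster 45) to 6232 CPM (immature cluster 7), with a median of 1153 CPM, UNC5C from 67.5 CPM (cluster 45) to 1599 CPM (cluster 16), and UNC5D from 46.1 CPM (excitatory cluster 40) to 3936 CPM (inhibitory cluster 29). UNC5B had the widest ratio of highest to lowest cluster among the 10 genes, from 0.588 CPM in cluster 26 to 236 CPM in cluster 41. Across these clusters DCC and UNC5C tended to be high together (Pearson r of log2 levels 0.44, Spearman rho 0.45), DCC and UNC5D did not (-0.15 and -0.21), nor did UNC5C and UNC5D (-0.01 and 0.05). NTNG1 and NTNG2 gave 0.26 and 0.30. These are descriptions over clusters that share libraries and depth.

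**Figure D5:**
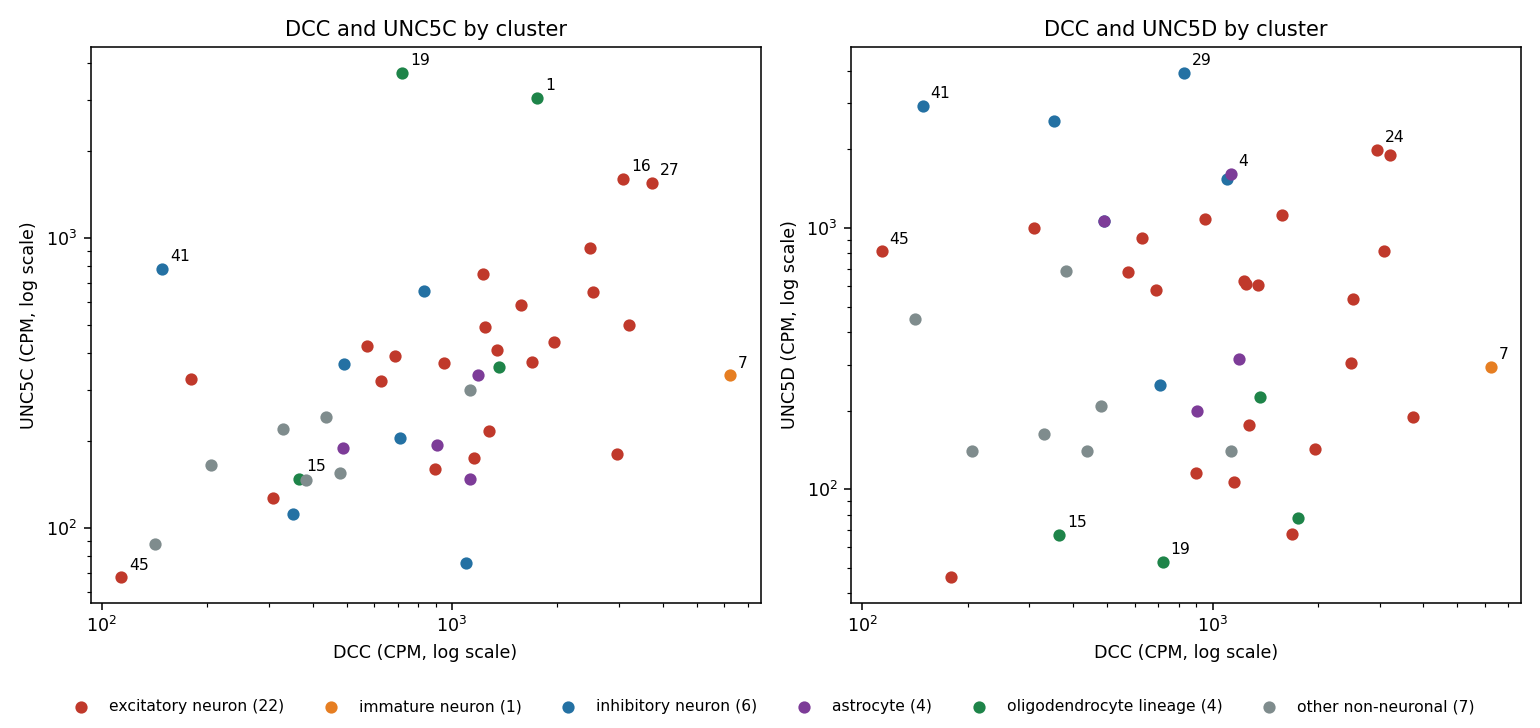
DCC (horizontal) against UNC5C (left) and UNC5D (right), in CPM on log axes, 1 point per named cluster, with some cluster numbers. Oligodendrocyte clusters 1 and 19 lie highest in UNC5C, immature cluster 7 farthest right in DCC, and inhibitory clusters 29 and 41 highest in UNC5D.

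The rest of the netrin pathway was read from a list of 35 genes, all in the table, of which 24 to 29 were measured in a comparison. In neurons over non-neuronal nuclei, 3 of 29 were higher and 5 lower, with a median log2 ratio of -0.20, beside 11.7% and 18.9% of all genes. PAK1, a kinase downstream of Rac, was 2.89-fold higher in neurons (274 against 95.02 CPM) and CBLN4, a secreted DCC ligand, 3.45-fold higher (16.6 against 4.79 CPM), while DOCK1, a Rac activator that binds DCC, was 20.4-fold lower (14.6 against 299 CPM) and MYO10, a myosin that carries DCC into filopodia, 8.97-fold lower. In excitatory over inhibitory neurons none of 28 was higher and 3 were lower (median -0.02), beside 6.15% and 6.44% of all genes, among them CBLN4 (2.68-fold) and TRIM67, a ubiquitin ligase that binds DCC (2.32-fold). In granule-like over pyramidal-like neurons 3 of 27 were higher and none lower (median 0.15), beside 4.72% and 5.26% of all genes. FLRT3, a UNC5 ligand, was 4.65-fold and RGMA, a neogenin ligand, 4.62-fold higher. In granule-like over immature neurons 3 of 29 were higher and 6 lower (median -0.22), beside 8.16% and 16.8% of all genes. The DCC ligands CBLN4 and DRAXIN were 18.6-fold and 13.6-fold lower in granule-like neurons, at 3.43 against 64.0 CPM and 3.07 against 41.9 CPM, and DAPK1, a kinase that binds UNC5 receptors, was 2.93-fold higher and the netrin receptor DSCAM 2.22-fold higher.

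In LHX6 over ADARB2 inhibitory neurons none of 28 pathway genes was higher and 2 were lower (median 0.08), beside 3.06% and 3.49% of all genes, DSCAM by 8.66-fold (247 against 2138 CPM) and RGMA by 2.43-fold. From precursors to newly formed oligodendrocytes 3 of 28 were higher and 6 lower (median -0.36), beside 5.77% and 13.2% of all genes. FYN, the Src-family kinase that acts behind DCC, was 8.09-fold higher, at 510.3 CPM in precursors and 4128 CPM in newly formed oligodendrocytes, and TRIO, a Rac activator, was 4.02-fold higher. The ubiquitin ligases TRIM67 and TRIM9 were 5.48-fold and 5.202-fold lower. From newly formed oligodendrocytes to oligodendrocytes 1 of 24 was higher, MYO10 (2.93-fold), and 6 were lower (median -0.15), beside 11.4% and 9.29% of all genes, among them FYN (10.7-fold) and TRIO (6.49-fold). FYN and TRIO were thus highest in the stage in which DCC was lowest. In astrocytes over other non-neuronal nuclei 4 of 27 were higher and 2 lower (median -0.05), beside 8.47% and 12.5% of all genes, with RGMA 9.96-fold and DAPK1 9.33-fold higher and the receptors DSCAML1 and DSCAM 9.05-fold and 6.60-fold lower. In vascular over other non-neuronal nuclei 4 of 27 were higher and 6 lower (median -0.26), beside 11.5% and 11.6% of all genes, with MYO10 4.21-fold and ABLIM1, an actin-binding protein, 3.39-fold higher, and DSCAML1 9.10-fold and DSCAM 7.79-fold lower.

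The genes whose log2(CPM + 1) over the 15 classes was most like each of the 10 were named by Pearson correlation, as a description. They were TPCN2 (0.93), RBBP7 (0.91) and SUSD5 (0.90) for NTN1, COL4A3 (0.84), NHS (0.82) and TRERF1 (0.82) for NTN4, AMZ1 (0.88), TNR (0.88) and CA10 (0.88) for NTNG1, and MATN2 (0.81), SLC15A5 (0.79) and ANKRD33B (0.79) for NTNG2. For the receptors they were ARID4A (0.89), DISP3 (0.86) and KIAA0408 (0.85) for DCC, CARF (0.83), RETREG1 (0.79) and RSPH14 (0.76) for NEO1, ADD2 (0.96), RAPGEFL1 (0.95) and CELF5 (0.95) for UNC5A, SLC12A2 (0.88), GABRE (0.87) and BOK (0.86) for UNC5B, DNAJC6 (0.90), TTLL7 (0.89) and ENSMMUG00000059177 (0.89) for UNC5C, and TLK1 (0.86), CHST12 (0.86) and TAFA4 (0.85) for UNC5D. UNC5A had the closest likenesses and NEO1 and NTNG2 the loosest, as far as the third gene of each shows.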

How the data were processed

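The authors deposited 1 matrix of raw UMI counts (whole numbers) for each gene in each nucleus. Its header gives Cell Ranger 3.1.0, and CASAVA 1.8 and Seurat stand beside it, with no role stated, in the submitters' processing notes. The genome build is not given in the sources used here, and no coordinates or sequences are printed.

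Of 59749 barcodes (331133661 UMIs), 58220 had at least 500 UMIs and 300 genes. Doublets scored by simulation within each library were removed at 0.8% per 1000 nuclei (3576). The 2000 most variable genes, without the 10 genes and the pathway list, gave 30 principal components, 20 neighbours per nucleus and Leiden clusters at resolution 1.0 (Python 3.11.15, leidenalg 0.10.2), with no correction between libraries. Clusters were named on log2(CPM + 10) from a list of 172 markers of 20 cell types, of which 164 were matched by symbol. PDGFRA and OLIG1 of precursors and MOBP and MAG of oligodendrocytes were among those not matched and not used. A name needed 3 or more markers at 20 CPM or more and a lead of 0.1 for the best type. In all, 4 clusters (1950 nuclei: 23, 32, 34 and 48) stayed unnamed. Clusters 23 and 32 had a median depth under 1/3 of their library's and none of the best type's markers among the 10 leading genes. Cluster 34 had a doublet score of 0.5 or more and cluster 48 under 50 nuclei. Pyramidal-like clusters needed a score of 0.5 and inhibitory subclasses a lead of 0.2. The scoring was settled after the data were seen.

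UMIs were summed per class. With the matrix as 1 sample there was no test and no p-value, and the planned test of sevoflurane against control was not run. The members, markers, lists and comparisons were chosen with earlier results of these data known. The text names all 10 genes, per comparison up to 2 called pathway genes of largest fold each way, and the 3 genes most like each of the 10. The calling step was tested on simulated data. Alternatives were other scaling, library weights, clusterings, filters, doublets kept, 5% of the summed profile of all kept nuclei taken off and each library left out. Ambient RNA itself was not estimated.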

Additional observations from a re-analysis of the deposited data

Results flagged for a closer look

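A library was listed where it stood apart from the others by Dixon's 95% rule, applied to 218 sets of library values; chance gives about 1 in 20, and 16 were found. In classes with 4 libraries, NEO1 in immature neurons was 233 CPM in library 4 (others 203 to 208), and UNC5D in newly formed oligodendrocytes was 97.9 CPM in library 2 (others 57.0 to 58.5). Among log2 ratios, NTNG1 in granule-like over immature neurons was 0.95 in library 4 (others 1.47 to 1.52) and UNC5D in newly formed oligodendrocytes over precursors was -1.12 in library 2 (others -1.91 to -1.86). In oligodendrocytes over newly formed oligodendrocytes, NTN4 was -0.82 and NEO1 was 0.70 in library 2 (others -2.91 to -2.70 and 0.74 to 0.75), and UNC5D was 0.90 in library 1 (others -0.05 to 0.07).

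In precursors, NTN1 was 667 CPM in library 7 (others 392.1 to 517), NTNG1 was 1248 CPM in library 8 (others 828.9 to 1024) and NEO1 was 361 CPM in library 8 (others 275 to 305). UNC5B in oligodendrocytes was 160 CPM in library 7 (others 61.6 to 108). NTN1 was 13.6 CPM in granule-like neurons of library 8 (others 5.55 to 8.99) and 30.97 CPM in microglia of library 5 (others 0 to 10.7). DCC in ADARB2 inhibitory neurons was 451 CPM in library 4 (others 554 to 638). In ependymal nuclei of library 7, NTN4 was 57.2 CPM (others 8.67 to 31.4) and UNC5A was 19.1 CPM (others 4.13 to 10.4).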

How the results depend on the processing

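No paired analysis was possible because no source ties libraries to samples. Under other settings, 362 counts of called genes were within 1.5 times of those reported and 28 were not. Of the log2 ratios, 1441 stayed within the counting interval of the reported one, 507 moved outside it and 2 reversed. These totals take in settings that could move few or no ratios. Dropping the filter on low values moved none, and leaving out astrocyte cluster 31 or LHX6 cluster 41 gave a median shift of 0. The median absolute shift was 0.15 in libraries 1 to 4 alone and 0.25 in libraries 5 to 8 alone. The share of all genes called was not computed under other settings, so the counts that follow cannot be set against it. TMM scaling, for one, shifts the log2 ratios of all genes in a comparison by the same amount. With TMM scaling, 4 genes were higher in neurons (2 as reported), 5 in excitatory neurons (3) and 4 in granule-like over immature neurons (2), and 4 were lower in vascular nuclei (2). With libraries weighted equally, 1 gene was higher in neurons and 2 lower in granule-like over immature neurons. With 5% of the summed profile of all kept nuclei taken off, 5 were higher in excitatory neurons and 3 lower in granule-like over immature neurons. With no filter on low values 2 were lower in granule-like over immature neurons. At resolution 0.5, 1 gene was lower in granule-like over pyramidal-like neurons and 2 in LHX6 over ADARB2 neurons, and the UNC5C log2 ratio of newly formed oligodendrocytes over precursors turned to 0.69.

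Leaving out each library gave 1 to 2 genes lower in neurons, 1 to 2 lower in granule-like over immature neurons and 2 to 4 lower in vascular nuclei. The following settings were chosen after seeing the data. A pyramidal score of 0.45 gave 1 gene lower in granule-like over pyramidal-like neurons; limiting sums to libraries with 50 or more nuclei in both classes gave 3 lower in granule-like over immature neurons. Without LHX6 cluster 41, 2 genes were lower in neurons and 1 higher in LHX6 neurons, and the UNC5B log2 ratio of excitatory over inhibitory neurons was 0.033. In libraries 1 to 4 alone, 1 gene was higher and 3 lower in neurons, 1 lower in granule-like over pyramidal-like, 3 lower in granule-like over immature, 0 lower in LHX6 and 5 lower in vascular nuclei; in libraries 5 to 8 alone, 1 was higher in neurons, 5 in excitatory and 1 in granule-like over pyramidal-like neurons. The cause was not tested, other than that the newly formed cluster at resolution 0.5 holds 239 oligodendrocytes. Few UMIs limit UNC5B, below 10 CPM in 11 of 15 classes, and intervals cover counting error only.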

Other observations

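The 4 unnamed clusters held all 10 genes. In cluster 48, 21 nuclei with RELN and EBF3 among their leading genes, NTNG2 was 246 CPM (interval 160 to 360; 26 UMIs), UNC5D 916 CPM (743 to 1118) and DCC 794 CPM (633 to 982), while UNC5A and NTN4 rested on 1 UMI each. In cluster 34, whose median doublet score was 0.62, NTN1 was 125.3 CPM and DCC 1616 CPM.

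The library values of some genes fell into separate ranges within a class. Of 90 pairs of a gene and a class with 8 libraries, 22 had a gap of 50% or more of their range with at least 2 libraries on each side, and in 18 of those the gap lay between libraries 1 to 4 and libraries 5 to 8. NTNG1 in pyramidal-like neurons was 94.4, 98.5, 80.1 and 87.1 CPM in libraries 1 to 4 and 331, 313, 331 and 322 CPM in libraries 5 to 8. UNC5D in granule-like neurons was 129, 139, 160 and 167 CPM in libraries 1 to 4 and 570.1, 513, 523 and 528 CPM in libraries 5 to 8. UNC5D in astrocytes was 982, 962, 846 and 858 CPM and then 1621, 1548, 1560 and 1665 CPM. UNC5C in ADARB2 inhibitory neurons went the other way, at 360, 375, 383 and 363 CPM in libraries 1 to 4 and 241, 253, 250 and 261 CPM in libraries 5 to 8. UNC5C in pyramidal-like neurons was 1071 and 1187 CPM in libraries 1 and 2 and 406 to 539 CPM in the other 6. Granule-like neurons, pyramidal-like neurons and astrocytes were mostly different clusters in libraries 1 to 4 and 5 to 8, whereas ADARB2 inhibitory neurons were clusters 8 and 10 in both. Over the pyramidal-like clusters NTNG1 ran from 15.1 CPM (cluster 27, libraries 1 to 4) to 514 CPM (cluster 13, libraries 5 to 8). The part of cluster makeup in these gaps was not tested. The samples behind the libraries are not known here.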
